A study of Mus musculus with 27 samples.

Results

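The enzymes that write and erase DNA methylation were followed through mouse pluripotent states as 8 genes: the methyltransferases Dnmt1, Dnmt3a and Dnmt3b, the cofactor Dnmt3l, the hemimethyl-CpG binding protein Uhrf1 and the dioxygenases Tet1, Tet2 and Tet3. They were taken by symbol from the 23604 uniquely named genes of an expression table that covers 19 bulk RNA-seq libraries. All 8 were listed there, and 7 of the 8 were listed in each of 2 single-cell count tables. The bulk unit is FPKM (fragments per kilobase of transcript and per size of the library), which is scaled per length.

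All cells were labelled wild type. The naive state was represented by mESCs (mouse embryonic stem cells, 2 libraries), kept without feeders in N2B27 2i/lif medium with 1 µM PD035901, 3 µM Chir99021 and 1000 units/ml hLIF. EpiLCs (epiblast-like cells, 2 libraries) and Epiblastoids (mESC-derived structures in Matrigel, 1 library each on day 2, day 3 and day 4) received Activin A at 20 ng/ml, bFgf2 at 12 ng/ml and 1% KSR. EpiSCs (epiblast stem cells, the primed state, 2 libraries) grew in 15% KSR, the same amounts of Activin A and bFgf2 and 5 µM XAV939, an inhibitor of Wnt/β-catenin activity, on mouse embryonic fibroblasts inactivated with Mitomycin C. The fPSCs (formative pluripotent stem cells) are Epiblastoids stabilised in Matrigel with Activin A, bFgf2 and XAV939 at those doses and without KSR. They were sampled at passage (P) 1 in 1 library and at P10 or later in 7 libraries, and fPSCs derived directly from E5.5 and E6.5 epiblasts were sampled at P10 in 1 library each.

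The 7 long-term fPSC libraries came in 2 deposits. The first holds P10, P20 and P30 and shares its protocol labels with all other bulk groups. The second holds the lines 46C (P24), BVSC (P14), CMT (P11) and ROSAmTmG (P12), names the NEBNext Ultra kit, and writes the XAV939 dose as 5 mM. Though labelled wild type, 46C is described in the study's text as a Sox1-GFP reporter line and BVSC as a Blimp1-Stella reporter line. ROSAmTmG cells are described there as tdTomato-positive. Replicate fPSC libraries are thus passages of 1 line or different lines, and nothing in the labels says that the 2 libraries of the other groups came from separate cultures, so p-values measure the spread between these libraries.

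Dnmt1 is the maintenance methyltransferase, which copies methylation to the new strand after replication, and Uhrf1 recruits it to hemimethylated CpGs. Dnmt3a and Dnmt3b set methylation de novo, and Dnmt3l is a catalytically inactive relative that stimulates both. The TET enzymes oxidise methylated cytosine, which leads to its passive or active loss. Naive mESCs in 2i medium are known for a lowly methylated genome, and the epiblast gains methylation around implantation.

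The labels were checked against marker genes. Summed FPKM of 6 naive markers ran from 1016 to 1121 in mESCs and from 54.5 to 83.6 in the 7 long-term fPSC libraries, where Nanog held most of it. The 4 formative markers (Otx2, Fgf5, Pou3f1, Pim2) summed to 504 to 2062 FPKM in fPSCs and 20.5 to 26.0 in mESCs. Pim2 was the highest of them in fPSCs. Their sum was 655 to 768 in EpiLCs and 658 to 865 in EpiSCs, so it did not tell fPSCs from either. For 3 core markers (Pou5f1, Sox2, Utf1) it ran from 785 to 1396 in fPSCs and from 409 to 476 in EpiSCs. In mESCs and EpiLCs the core sum ran from 1015 to 1052 and from 896 to 1247. Primed or early lineage markers summed to between 139 and 192 FPKM in EpiSCs and spread from 14.9 to 113 FPKM over the fPSC libraries, where Foxa2, an endoderm factor, led with 31.9 ± 25.9 FPKM (SD, n = 7). Fibroblast markers summed to between 213 and 286 FPKM in EpiSCs, with 8 of 10 at 1 FPKM or more in both libraries and Col1a1 at a mean of 132 FPKM, against 1.61 to 3.60 in mESCs, 10.6 to 12.1 in EpiLCs and 4.10 to 9.26 in fPSCs. None of the 10 was at 0 in both EpiSC libraries, and Dcn and Twist2 were at 0 in both mESC libraries. The part of feeder RNA in any value of EpiSCs below was not tested. In these bulk samples, fewer cells with a transcript and less of it per cell cannot be told apart.

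Groups were compared with limma on log2(FPKM + 1), in a single model of the 7 fPSC libraries, EpiSCs, EpiLCs and mESCs. Passing the threshold required an adjusted p (Benjamini-Hochberg, over all 12513 genes tested) under 0.05 together with a fold change of at least 1.5. All 8 genes entered this fit, since each reached 1 FPKM in 2 libraries or more. Differences below are on the log2(FPKM + 1) scale with their standard error (SE), and a negative value is a lower level in the group named first. This scale understates the change of genes with low FPKM.

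Of the maintenance pair, Dnmt1 differed little between states and Uhrf1 differed between the fPSC deposits. Dnmt1 was at 68.7 and 52.3 FPKM in mESCs, 49.2 and 41.1 in EpiLCs and 53.5 in both EpiSC libraries. In the 7 fPSC libraries it ran from 42.9 to 53.8 with a median of 47.8 FPKM. The lowest mESC library lay within the fPSC range, and both EpiSC libraries lay inside it too. Dnmt1 did not pass the threshold in any of the 8 comparisons fitted here. The difference between fPSCs and mESCs was -0.31 (SE 0.14, limma adjusted p = 0.0902), and that between fPSCs and EpiSCs was -0.15 (95% interval -0.45 to 0.15).

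Uhrf1 reached higher values than Dnmt1 in each library, at 2.19 to 5.57 times its FPKM. It was at 232 and 188 FPKM in mESCs, 191 and 131 in EpiLCs and 231 and 194 in EpiSCs. Within the fPSCs it split by deposit: 231, 255 and 257 FPKM at P10, P20 and P30 of the first deposit, and 122, 118, 122 and 110 FPKM in 46C, BVSC, CMT and ROSAmTmG of the second. The 2 sets did not overlap. The pooled differences of fPSCs from mESCs, EpiLCs and EpiSCs were -0.37, 0.03 and -0.39, none past the threshold in limma. With the second deposit alone they were -0.82 (adjusted p = 0.00349), -0.42 (adjusted p = 0.109) and -0.84 (adjusted p = 0.00304). With the first deposit alone they were 0.24 (adjusted p = 0.324), 0.64 (adjusted p = 0.0372) and 0.22 (adjusted p = 0.415). The direction for Uhrf1 in fPSCs therefore rested on which deposit was used.

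The de novo enzymes showed the widest range. Dnmt3b was at 14.4 and 13.4 FPKM in mESCs and at 629 and 693 FPKM in EpiLCs. It stayed high through the Epiblastoids, at 724 FPKM on day 2, 481 on day 3 and 367 on day 4, and was at 592 FPKM in fPSCs at P1. Among the long-term fPSCs it ran from 361 to 595 FPKM with a median of 486. EpiSCs were between these and the naive state, at 121 and 126 FPKM. No fPSC library overlapped with mESCs or with EpiSCs. In P1 fPSCs, Dnmt3b ranked 57th from the highest among all genes of the library, and in the 2 mESC libraries it ranked 4319th and 4558th.

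Dnmt3b was higher in fPSCs than in mESCs by 4.99 (SE 0.18, limma adjusted p = 2.34e-10) and higher than in EpiSCs by 1.92 (SE 0.18, limma adjusted p = 4.44e-06). Within the first and the second deposit they were 4.96 and 5.01 against mESCs, and 1.89 and 1.95 against EpiSCs. Against EpiLCs it differed by -0.48 (95% interval -0.88 to -0.08, limma adjusted p = 0.102), which did not pass. EpiLCs rose above mESCs by 5.47 (SE 0.23), and EpiSCs by 3.06 (SE 0.23).

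Dnmt3a was highest in EpiLCs. It was at 2.73 and 0.404 FPKM in mESCs, 117 and 107 FPKM in EpiLCs, 56.0, 52.4 and 17.7 FPKM in Epiblastoids on days 2, 3 and 4, and 44.4 FPKM at P1. Long-term fPSCs ran from 18.9 to 40.4 FPKM with a median of 28.1, and EpiSCs were at 16.6 and 16.0. Every fPSC library was above both mESC and both EpiSC libraries and below both EpiLC libraries.

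Dnmt3a was higher in fPSCs than in mESCs by 3.63 (SE 0.35, limma adjusted p = 2.81e-06) and lower than in EpiLCs by 1.99 on the log2 scale (SE 0.35, limma adjusted p = 0.00187). Its difference from EpiSCs was 0.72 (95% interval -0.05 to 1.48, limma adjusted p = 0.129) over all 7 libraries. By deposit that difference was 0.29 (adjusted p = 0.534) with the first and 1.04 (adjusted p = 0.0212) with the second, which passed. The first-deposit libraries held 20.0, 21.4 and 18.9 FPKM of Dnmt3a, and the second-deposit libraries 28.1, 40.4, 31.5 and 39.5.

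Dnmt3l followed another course. It was at 17.5 and 4.18 FPKM in mESCs, 71.6 and 40.6 FPKM in EpiLCs, 29.7 FPKM on day 2, 3.00 on day 3 and 0.0113 on day 4 of the Epiblastoids, and 0.879 at P1. In the 7 long-term fPSC libraries it was listed at 0 in 4 and at 0.0276 FPKM at most, it was listed at 0 in both epiblast-derived libraries, and EpiSCs were at 0.0416 and 0.0186. The mESC libraries themselves differed widely, and both lay above every fPSC and EpiSC library. Dnmt3l rose in EpiLCs over mESCs by 2.49 (SE 0.42, limma adjusted p = 0.000635). It was lower in fPSCs than in EpiLCs, at -5.77 (SE 0.34, limma adjusted p = 9.78e-08), and lower than in mESCs, at -3.28 (SE 0.34, limma adjusted p = 5.07e-06). Since most fPSC libraries are listed at 0 and depth is unknown, these differences depend on the pseudocount and are not folds. Within this fit Dnmt3l reached 1 FPKM only in mESCs and EpiLCs. It thus entered the fit only through the groups where it is high, and its falls in fPSCs are not independent of that filter.

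Of the 3 TET genes, Tet1 and Tet2 are the ones known from naive mESCs. Tet2 was at 7.39 and 4.25 FPKM in mESCs and at 0.0607 to 0.516 FPKM in the other 17 libraries. No other state overlapped with mESCs. Tet2 reached 1 FPKM in the 2 mESC libraries alone and so entered the fit only through the group where it is high, and without either of them it was not tested. With both, Tet2 fell from mESCs to EpiLCs by 2.45, to EpiSCs by 2.203 and to fPSCs by 2.39 on the log2 scale (SE 0.16 for fPSCs, limma adjusted p = 7.82e-08). Among the 3 later states the Tet2 differences were between -0.19 and 0.25, and none passed.

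Tet1 was at 10.003 and 6.94 FPKM in mESCs, 16.3 and 7.08 in EpiLCs, 24.3, 6.42 and 4.46 on days 2, 3 and 4, and 15.1 at P1. Long-term fPSCs ran from 4.97 to 10.4 FPKM with a median of 7.50, and EpiSCs held 2.03 and 1.71. All fPSC libraries exceeded both EpiSC libraries and overlapped with mESCs. Tet1 was higher in fPSCs than in EpiSCs by 1.51 (SE 0.30, limma adjusted p = 0.00213), and passed within each deposit, at 1.82 and 1.27. Its differences from mESCs and EpiLCs were -0.20 (95% interval -0.85 to 0.46) and -0.53 (-1.19 to 0.12), neither past the threshold. EpiSCs were below mESCs, at -1.70 (SE 0.38, limma adjusted p = 0.00256).

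Tet3 was lowest in mESCs. It was at 1.15 and 0.454 FPKM in mESCs, 3.77 and 1.80 in EpiLCs and 10.7 and 5.85 in EpiSCs, and in long-term fPSCs it ran from 2.85 to 8.31 FPKM with a median of 3.91. The fPSC range overlapped with EpiLCs and with EpiSCs and not with mESCs. Tet3 exceeded its mESC level by 1.63 in fPSCs (SE 0.35, limma adjusted p = 0.00211) and by 2.34 in EpiSCs (SE 0.44, limma adjusted p = 0.000757). Without the second mESC library, the difference of fPSCs was 1.35 (adjusted p = 0.0524) and did not pass. Between fPSCs and EpiSCs the Tet3 difference was -0.71 (95% interval -1.47 to 0.05, limma adjusted p = 0.131), and with the second deposit alone -0.95 (adjusted p = 0.0305), which passed.

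**Figure D1:**
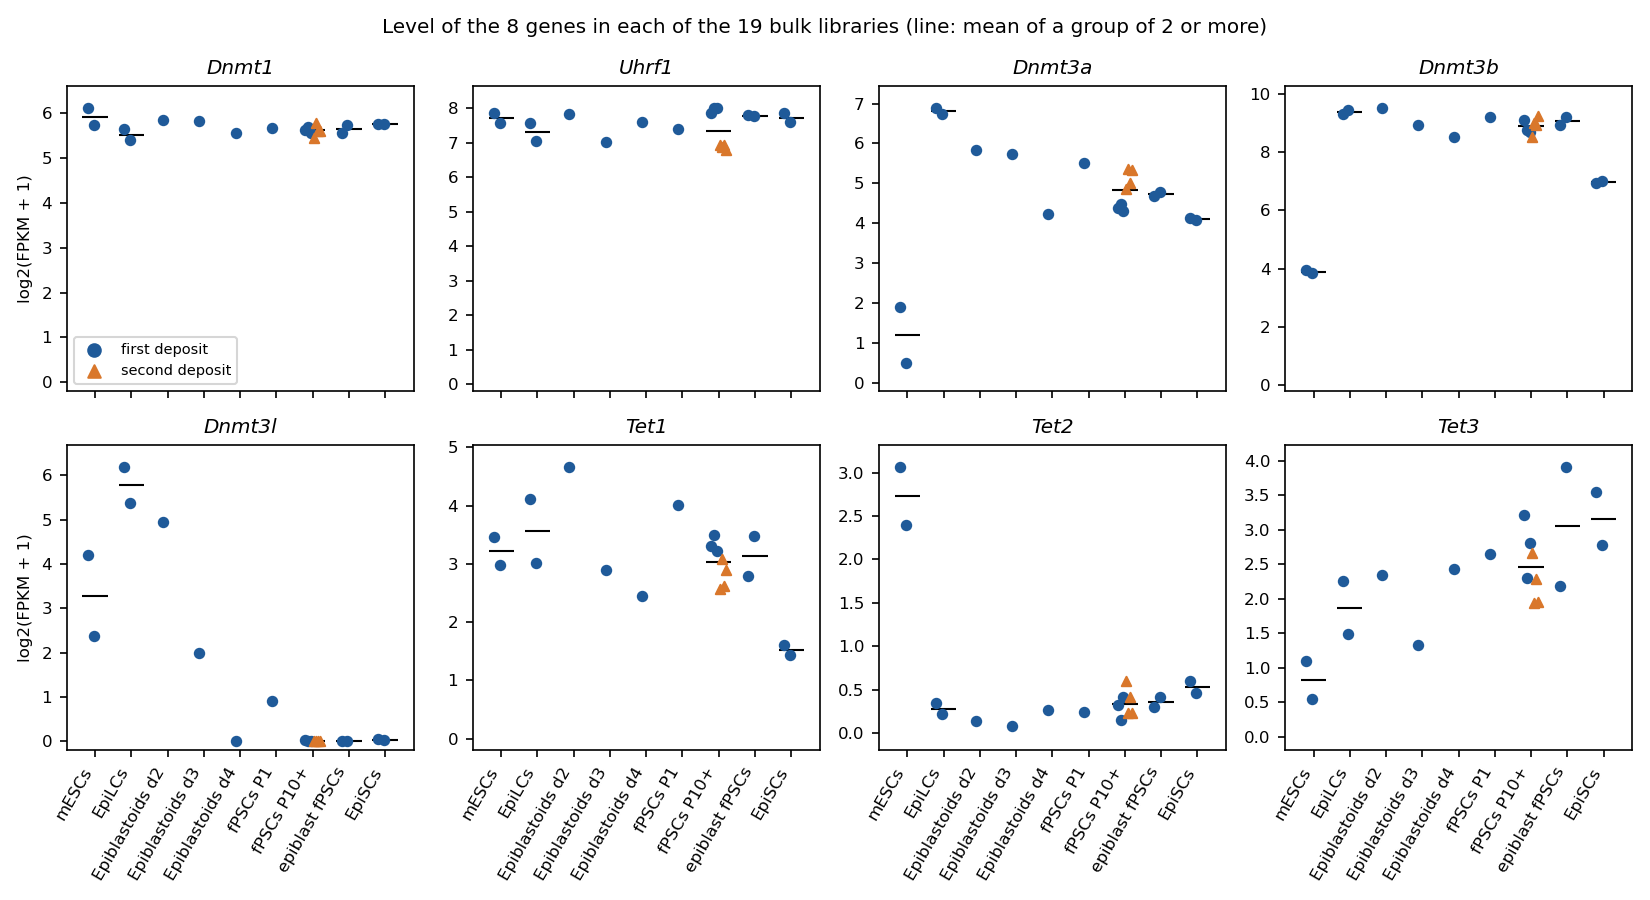
Level of the 8 genes, as log2(FPKM + 1), in each of the 19 bulk libraries. Points are libraries, blue circles of the first and orange triangles of the second deposit, and lines are means of groups with 2 or more libraries. Dnmt1 is nearly level, Dnmt3b is lowest in mESCs (13.4 and 14.4 FPKM) and next lowest in EpiSCs (121 and 126 FPKM), Dnmt3l is high in EpiLCs (40.6 and 71.6 FPKM) and near 0 in fPSCs, and the Uhrf1 values of fPSCs fall into 2 sets by deposit.

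The counts of the 8 genes are read against all genes tested. In EpiLCs against mESCs, 4 of 8 passed, 3 higher (Dnmt3a, Dnmt3b, Dnmt3l) and 1 lower (Tet2), where 29.6% of all genes tested passed, 12.2% higher and 17.4% lower. In EpiSCs against mESCs, 6 of 8 passed, 3 higher (Dnmt3a, Dnmt3b, Tet3) and 3 lower (Dnmt3l, Tet1, Tet2), against 47.8% of all genes, 23.1% higher and 24.7% lower. In fPSCs against mESCs, 5 of 8 passed, 3 higher (Dnmt3a, Dnmt3b, Tet3) and 2 lower (Dnmt3l, Tet2), against 40.3%, 17.3% higher and 23% lower. With so large a share of all genes past the threshold, these counts say little about the 8 genes as a group. Tet2 entered the fit only through mESCs and Dnmt3l only through mESCs and EpiLCs. Their falls are therefore not independent of the filter, here and in the comparisons below. The median of all genes tested was -0.04 in fPSCs against mESCs.

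Against EpiSCs, 2 of 8 genes passed in fPSCs, both higher (Dnmt3b, Tet1), where 32.3% of all genes passed, 13.3% higher and 19% lower. Against EpiLCs, 2 of 8 passed in fPSCs, both lower (Dnmt3a, Dnmt3l), where 13.8% of all genes passed, 5.66% higher and 8.15% lower. EpiSCs against EpiLCs gave 5 of 8, 1 higher (Tet3, 1.29, limma adjusted p = 0.0346) and 4 lower (Dnmt3a -2.71, Dnmt3b -2.41, Dnmt3l -5.74, Tet1 -2.04), where 35.9% of all genes passed, 20.4% higher and 15.5% lower. The Tet3 call was lost with upper-quartile scaling (1.22, adjusted p = 0.0508), without a filter on low values (adjusted p = 0.0745), and without EpiLCs replicate 2 or EpiSCs replicate 1 (0.91 each, adjusted p = 0.242 and 0.223). These comparisons share libraries of the same groups and are not independent of each other.

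**Figure D2:**
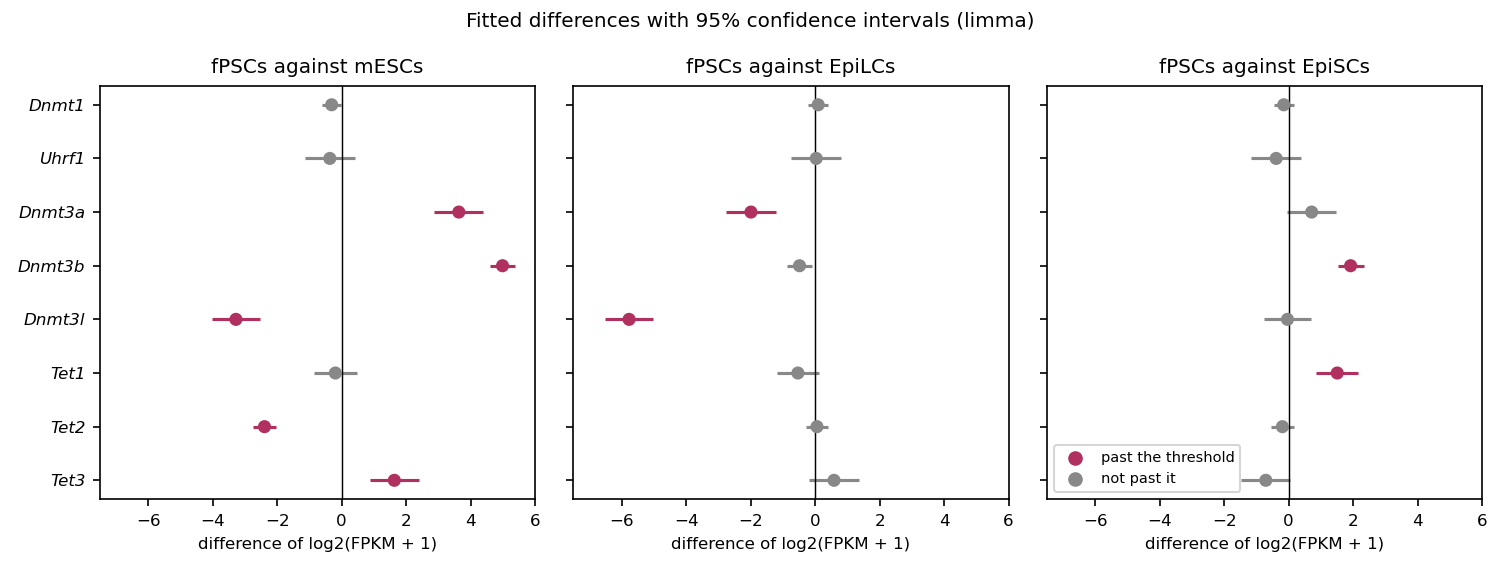
Fitted differences of the 8 genes in fPSCs (7 libraries) against mESCs, EpiLCs and EpiSCs (2 libraries each) on the log2(FPKM + 1) scale, with 95% confidence intervals from limma. Red points are past the threshold and grey points are not. Dnmt3b is far to the right against mESCs (4.99) and EpiSCs (1.92), and Dnmt3l is far to the left against mESCs (-3.28) and EpiLCs (-5.77).

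Because FPKM are scaled per length, levels within a family can be set side by side. Dnmt3b took 92.6% to 96.5% of the summed FPKM of Dnmt3a, Dnmt3b and Dnmt3l in the 7 long-term fPSC libraries. It took 87.9% and 88.7% in EpiSCs, 76.9% and 82.5% in EpiLCs and 41.7% and 74.4% in mESCs. Dnmt3l made up 50.4% and 23.3% of the sum in mESCs, 8.75% and 4.83% in EpiLCs and at most 0.00488% in long-term fPSCs. The summed FPKM of the 3 genes was 26.3 ± 11.8 (SD, n = 2) in mESCs and 829 ± 15.9 (SD, n = 2) in EpiLCs.

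Among the TET genes the leading member differed between states and also between fPSC libraries. Tet1 held 54.0% and 59.6% of the summed TET FPKM in mESCs, 80.2% and 78.4% in EpiLCs, 45.8% to 72.0% in fPSCs and 15.4% and 21.6% in EpiSCs. Tet2 held 39.9% and 36.5% in mESCs and at most 4.76% in fPSCs and EpiSCs. Tet3 held 6.19% and 3.89% in mESCs, 27.1% to 49.4% in fPSCs and 80.8% and 73.7% in EpiSCs. The Epiblastoids moved the same way between single libraries, with Tet3 at 14.2% on day 2, 18.8% on day 3 and 48.5% on day 4. In fPSCs neither Tet1 nor Tet3 was negligible. Tet3 led in the 46C line, at 49.4% beside 45.8% for Tet1. It also led in the epiblast-derived E6.5 line, at 57.3% beside 41.4%. In EpiSCs Tet3 led in both libraries.

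Set against each other, the summed FPKM of Dnmt3a and Dnmt3b was 0.926 and 1.18 times that of the 3 TET genes in mESCs. It was 36.7 and 88.6 times in EpiLCs, 29.6 to 66.9 times in the 7 long-term fPSC libraries and 10.4 and 17.9 times in EpiSCs. The fPSC libraries overlapped with EpiLCs and lay above both EpiSC libraries. This ratio describes transcripts and not enzyme activity.

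**Figure D3:**
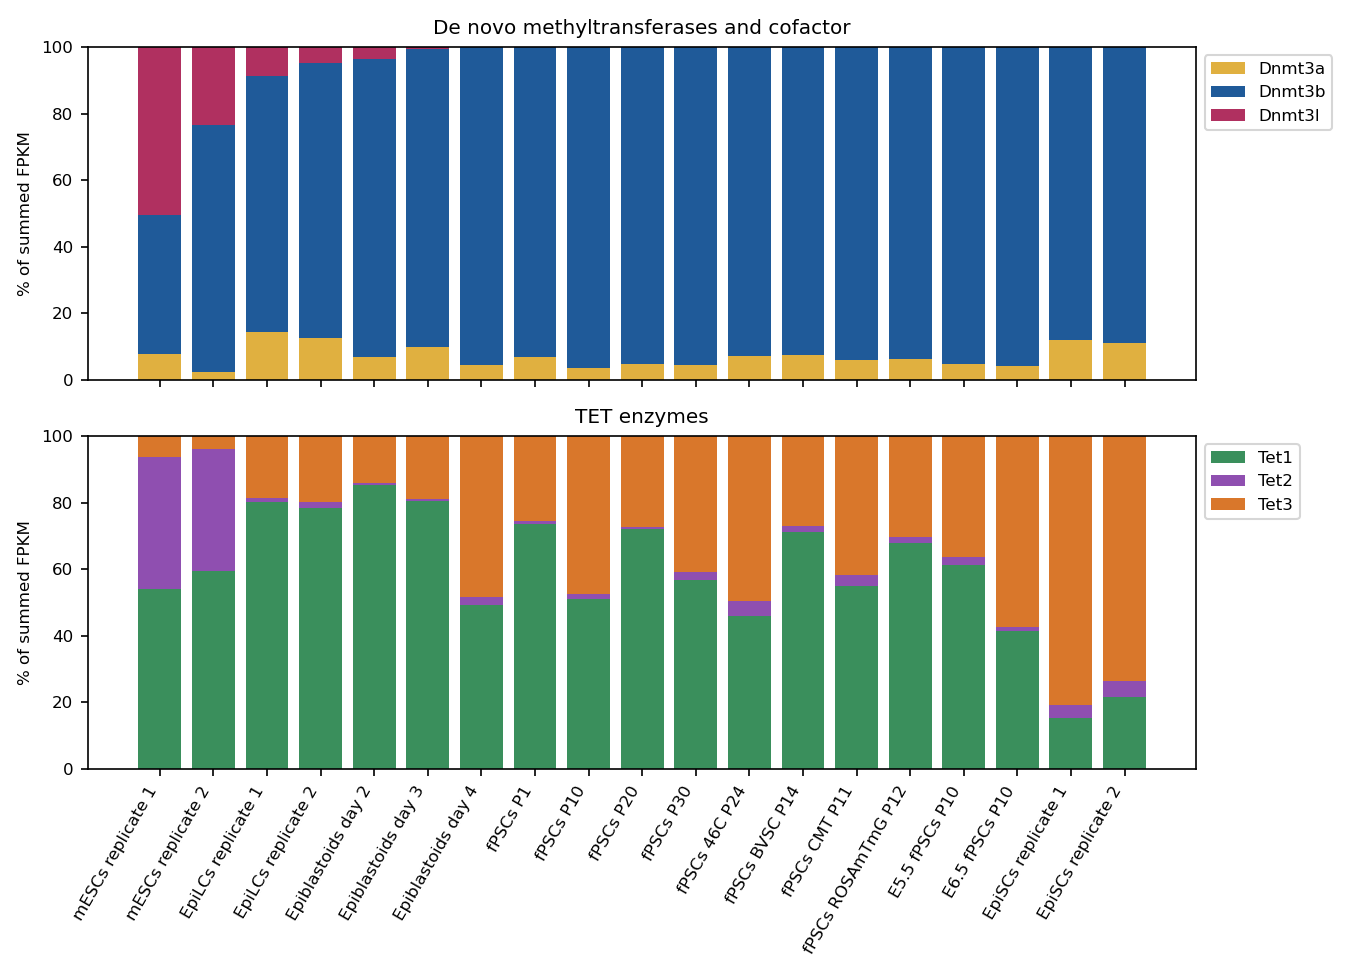
Share of each gene in the summed FPKM of the de novo genes (upper bars) and of the TET genes (lower bars) in each of the 19 bulk libraries. Dnmt3b fills 92.6% to 96.5% of the upper bars in long-term fPSCs, and in the lower bars Tet2 is visible mainly in mESCs (39.9% and 36.5%) and Tet3 leads in EpiSCs (80.8% and 73.7%).

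How evenly the 7 long-term fPSC libraries expressed these genes was examined in a second fit, over fPSC libraries and epiblast-derived fPSCs alone, with 11074 genes tested. Dnmt3l and Tet2 did not reach 1 FPKM in 2 libraries there and were not tested. Of the 6 genes tested, 2 passed between deposits, where 29.2% of all genes passed, 20.4% higher and 8.79% lower in the second. Uhrf1 was lower in the second deposit, at -1.07 (SE 0.10, limma adjusted p = 0.000123), and Dnmt3a was higher, at 0.75 (SE 0.14, limma adjusted p = 0.00246). Neither gene overlapped between deposits. The share of all genes without overlap was not computed, so this is a description only.

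Tet1 differed by -0.55 (SE 0.19, limma adjusted p = 0.0412) and missed only the fold threshold. With a pseudocount of 0.1 or upper-quartile scaling it passed, at -0.62 and -0.61. Dnmt1 and Dnmt3b differed by -0.02 (95% interval -0.26 to 0.23) and 0.06 (-0.35 to 0.46). Deposit, library kit as labelled, line and passage change together here, except that 1 second-deposit library is of line CMT, the line to which the study's text assigns the first-deposit passages. The study's text gives that P11 sample as cryopreserved, so it differs from the first-deposit passages in more than the deposit. It held 122 FPKM of Uhrf1 and 31.5 FPKM of Dnmt3a, within the other second-deposit values. The cause was not tested.

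The fPSCs derived from epiblasts were set against the 3 mESC-derived fPSC libraries of the same deposit. The E5.5 and E6.5 lines held 491 and 590 FPKM of Dnmt3b, 24.6 and 26.7 FPKM of Dnmt3a, 224 and 218 FPKM of Uhrf1, 46.2 and 52.7 FPKM of Dnmt1, 5.95 and 10.2 FPKM of Tet1, and 3.55 and 14.1 FPKM of Tet3. Only Tet3 differed widely between both lines, and its E6.5 value was the highest of all 19 libraries. Of the 6 genes tested in limma against the first-deposit fPSCs, 0 passed and 0 had an unadjusted p under 0.05, where 0.894% of all genes passed, 0.415% higher and 0.479% lower. The intervals reached from -0.27 to 0.71 for Dnmt3b, from -0.04 to 0.71 for Dnmt3a and from -0.74 to 1.30 for Tet3, so changes of that size could have been missed.

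Single fPSCs of 4 clones gave a level per clone and the share of cells with a count. After removal of 1 cell with fewer than 500 genes, 181 cells held 11905751 counts, 1501395 to 4712214 per clone, with a median of 23867 per cell. CPM, a gene's counts scaled to a common library total, were formed from the summed counts of each clone. Deeper cells therefore weigh more in them. Dnmt3b was at 1772, 1845, 1898 and 2030 CPM in clones 1 to 4 and had a count in 180 of 181 cells (99.4%, exact 95% binomial interval 97.0% to 100.0%). Its mean over clones was 1886 ± 109 CPM (SD, n = 4), the narrowest spread of the 7 genes apart from Dnmt3a in relation to the mean.

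Dnmt3a was at 237 ± 12.9 CPM, Uhrf1 at 293 ± 31.4, Dnmt1 at 162 ± 44.7, Tet1 at 306 ± 91.8 and Tet3 at 47.6 ± 9.68 CPM (SD, n = 4 clones). In relation to the mean, the spread between clones was widest for Tet2 and next widest for Tet1, which was at 434 CPM in clone 4 and 226 to 309 CPM in the others. CPM are not scaled per length and are not compared between genes. Since cells differ in depth, each was thinned to 5600 counts, which left out 17 shallower cells. Among the 164 thinned cells, a count was present in 98.2% for Dnmt3b, 64.0% for Dnmt3a, 61.6% for Uhrf1, 59.8% for Tet1, 43.3% for Dnmt1 and 16.5% for Tet3. Unthinned shares were 81.2%, 75.1%, 77.9%, 69.1% and 35.4% for the last 5 genes in that order.

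Tet2 was seldom counted. It had a count in 13 of 181 cells (7.18%, exact 95% interval 3.88% to 12.0%), and after thinning in 2 of 164 (1.22%, 0.148% to 4.34%). The naive markers Esrrb, Tfcp2l1 and Klf4 had a count in 1.22%, 1.83% and 1.83% of the thinned cells, Nr5a2 in 3.66% and Nanog, which fPSCs express, in 40.9%. Of the 83 Tet2 counts, 69 came from 3 cells of clone 3. The intervals cover counting error alone, and the cells come from 4 clones. Dnmt3l is not listed in either table, and since both tables also list genes without a single count (10 and 48), a missing row is no measured 0.

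A low share of cells in these tables does not show low expression: Pou5f1, at 691 FPKM on average in the long-term fPSC libraries, had a count in 17 cells and a mean of 4.86 CPM. Both Dnmt3a and Dnmt3b had a count in 62.8% of the 164 thinned cells, and both Tet1 and Tet3 in 9.15%. Columns of the 2 tables share 86 well numbers, and 1 column name is used for 2 cells with different values in the second table, so cells were counted by column.

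**Figure D4:**
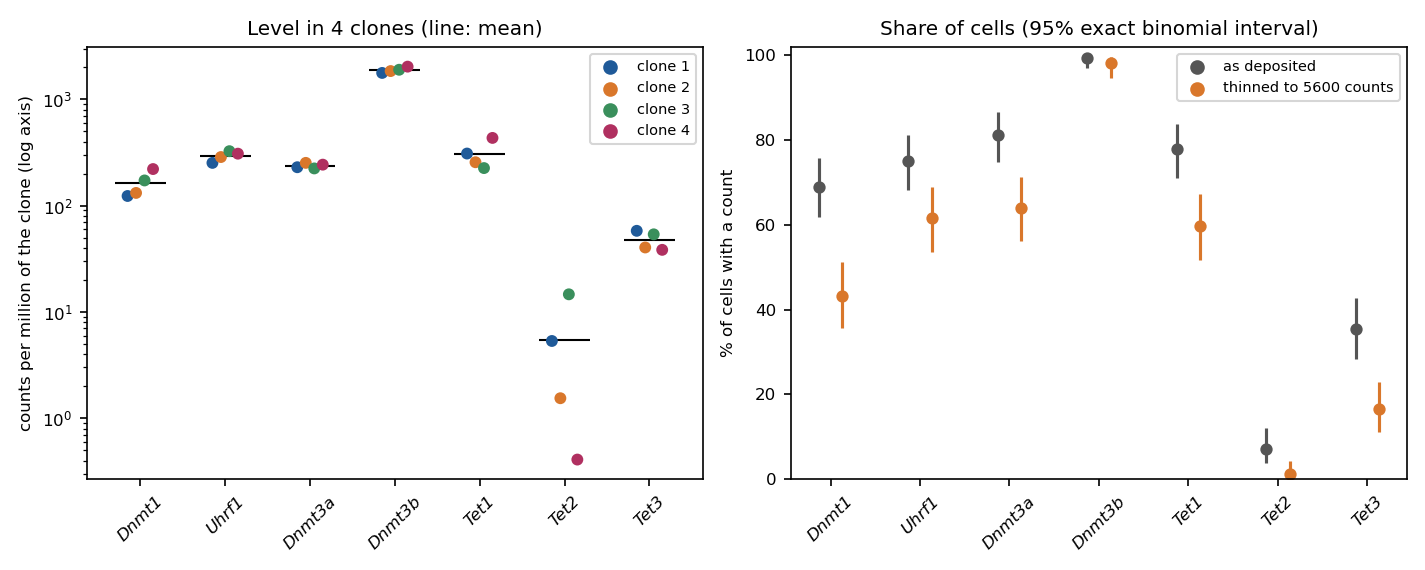
Left, CPM of 7 genes in each of 4 fPSC clones on a log axis, with their mean as a line. Right, the percentage of cells with a count, for 181 cells as deposited (grey) and 164 cells thinned to 5600 counts (orange), with exact 95% binomial intervals. Dnmt3b is at 98.2% of thinned cells and Tet2 at 1.22%.

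DNA methylation itself was measured by whole-genome bisulfite sequencing of fPSCs at P10, given as 1 file for both replicate labels. Each of 10243168 windows of 100 bp carries a methylated fraction, with no read coverage, so no interval could be given and n is 1. The mean over windows was 87.1%, the median fraction was 0.93, and 85.2% of windows were at 0.8 or more against 4.11% at 0.2 or less. Gene bodies stood at 89.2%, intergenic sequence at 87.8% and the X chromosome at 89.6%. Within 1000 bp of annotated start sites the mean was 48.6%.

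Methylation was lower in windows dense in CpGs. Windows with 1 CpG averaged 88.2%, those with 2 CpGs 88.3%, those with 3 to 4 CpGs 86.6%, those with 5 to 9 CpGs 71.03% and those with 10 or more 14.04%. This high level was measured at the same passage at which Dnmt3b was at 547 FPKM, Dnmt3a at 20.0, Tet1 at 8.92, Tet3 at 8.31 and Dnmt3l at 0.0276 FPKM. Only fPSCs have a methylation file here, so methylation could not be related to enzyme levels across states.

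The same fPSC files show the state of the enzymes' own start sites. The 200 bases before the annotated start are given for Dnmt3b, the leading enzyme of fPSCs, for Dnmt3a and Dnmt3l, which have more than 1 start, and for Tet2, which is unmethylated there at a low transcript level. They are read 5′ to 3′ on the gene's strand from NCBIM37 (mm9), the build of the files, and capitals mark each CpG.
Dnmt3b, chr2:153474985-153475184, plus strand: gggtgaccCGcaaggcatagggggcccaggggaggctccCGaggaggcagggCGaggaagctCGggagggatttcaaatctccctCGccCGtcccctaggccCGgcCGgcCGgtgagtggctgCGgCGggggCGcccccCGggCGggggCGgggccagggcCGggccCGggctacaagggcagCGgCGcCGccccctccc
Dnmt3a first start, chr12:3806780-3806979, plus strand: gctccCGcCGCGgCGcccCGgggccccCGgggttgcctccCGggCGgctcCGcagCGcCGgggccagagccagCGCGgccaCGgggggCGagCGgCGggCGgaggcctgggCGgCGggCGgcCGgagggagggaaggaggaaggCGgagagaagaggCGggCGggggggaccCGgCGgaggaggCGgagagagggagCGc
Dnmt3a internal start, chr12:3891544-3891743, plus strand: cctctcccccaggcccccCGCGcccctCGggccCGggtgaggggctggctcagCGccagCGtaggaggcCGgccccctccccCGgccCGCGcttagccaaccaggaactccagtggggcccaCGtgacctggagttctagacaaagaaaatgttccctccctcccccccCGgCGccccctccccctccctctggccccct
Dnmt3l first start, chr10:77504832-77505031, plus strand: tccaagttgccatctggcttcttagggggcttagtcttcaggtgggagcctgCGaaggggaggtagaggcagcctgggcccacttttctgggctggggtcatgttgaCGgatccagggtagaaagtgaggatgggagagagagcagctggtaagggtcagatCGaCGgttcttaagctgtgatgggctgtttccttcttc
Dnmt3l second start, chr10:77512387-77512586, plus strand: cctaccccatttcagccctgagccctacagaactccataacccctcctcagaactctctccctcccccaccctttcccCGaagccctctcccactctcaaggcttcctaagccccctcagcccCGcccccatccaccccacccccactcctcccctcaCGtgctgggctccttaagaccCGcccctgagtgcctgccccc
Tet2, chr3:133207355-133207554, minus strand: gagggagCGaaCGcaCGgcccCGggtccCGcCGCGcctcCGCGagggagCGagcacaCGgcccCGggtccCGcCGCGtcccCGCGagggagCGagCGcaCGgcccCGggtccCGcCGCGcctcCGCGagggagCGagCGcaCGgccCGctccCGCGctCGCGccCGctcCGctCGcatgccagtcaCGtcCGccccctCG
The stretches before Dnmt3b, both Dnmt3a starts and Tet2 hold 20, 29, 13 and 40 CpGs, and those before the 2 Dnmt3l starts hold 4 each.

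Counted over RefSeq promoters (build GRCm38.p6) of 250 bases before to 50 after the start, the letters CG occur 57 times at Tet2, more than in 99.8% of 32851 promoters, 46 times at the first Dnmt3a start (98.4%) and 30 times at Dnmt3b (88.3%). They occur 6 and 4 times at the first and second Dnmt3l starts (more than in 43.6% and 31.4% of promoters). CG reads the same on both strands. All 15 RefSeq starts of the 8 genes were placed on NCBIM37 by an exact match of their sequence.

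Methylation within 1000 bp of a start is given beside the median of 21940 genes, 35.7%, and H3K4me3 (a mark of active or poised promoters) and H3K27me3 (the Polycomb mark) beside medians of 2.61 and 0.289 RPKM over 22208 genes. At Dnmt3b, 13 of 17 windows were at 0.2 or less, the mean was 17.5%, and H3K4me3 averaged 6.34 RPKM, above 82.7% of genes, with H3K27me3 at 0.225 RPKM. Uhrf1 and Dnmt1 also had starts with little methylation and much H3K4me3. The second Uhrf1 start was at 14.5% with 10.01 RPKM of H3K4me3, above 96.3% of genes, and the Dnmt1 start 106 bp from the annotated 5′ end was at 21.3% with 6.16 RPKM. Another annotated Dnmt1 start, 7015 bp upstream, was at 89.7% methylation and 0.373 RPKM of H3K4me3.

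Dnmt3a has annotated starts about which the listed marks differed. Around its first start all 13 windows were at 0.2 or less (1.38% on average), and H3K4me3 averaged 0.685 RPKM, above 34.3% of genes. Only 5 of 20 bins were listed there for H3K4me3 and 3 of 20 for H3K27me3, and bins not listed count as 0. Runs of bins listed for neither mark also lie over the starts of Dnmt3b and Tet2. Whether such bins lack the marks or lack reads is not given, so the low value cannot be read as absence of H3K4me3. Around the internal start, 85737 bp into the gene, methylation was 10.6% and H3K4me3 was 6.22 RPKM, above 81.8% of genes. The internal start gives a transcript known to encode a shorter Dnmt3a protein of embryonic stem cells. H3K27me3 was 0.225 and 0.128 RPKM within 1000 bp of the first and the internal start. Within 2500 bp of the first start it was 1.20 RPKM, with the mark upstream of the unmethylated stretch. FPKM are given per gene and do not say which start was used.

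Dnmt3l was methylated at all of its 3 annotated starts, at 97.9%, 89.9% and 92.7%, with 0 windows at 0.2 or less. H3K4me3 was 0.683, 1.18 and 0.373 RPKM there, and H3K27me3 was 1.38 RPKM at the first start, above 87.7% of genes. The gene was thus the most methylated of the 8 at its starts, in cells where its transcript was at 0.0276 FPKM. Beyond the 1000 bp, windows from 1100 to 1600 bp after the first start were at fractions of 0.07 to 0.5. H3K4me3 reached 6.22 RPKM in that stretch. A single bin just over a kilobase before the second start holds 110.7 RPKM of H3K4me3 and 83.8 RPKM of H3K27me3. It lies outside the 1000 bp used here, and a peak of that height in both marks was not seen near the other starts shown.

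Tet2, at 0.248 FPKM at P10, had unmethylated DNA at its start. Of 16 windows 14 were at 0.2 or less, the mean was 4.19%, H3K4me3 was 5.04 RPKM (above 73.1% of genes) and H3K27me3 was 1.39 RPKM (above 87.9% of genes). Tet1 was at 13.7% with 7.90 RPKM of H3K4me3 and 0.193 of H3K27me3, and Tet3 at 6.0% with 6.66 and 0.129. The Tet1 start used here lies 11794 bp inside the annotated gene. Of the 3 TET genes, the 2 above 1 FPKM in fPSCs had less H3K27me3 at their start than the median gene, and Tet2 had more. Gene bodies were at 84.0% (Dnmt3a) to 92.6% (Dnmt1) in all 8 genes, near the average of 89.2% for all gene bodies.

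**Figure D5:**
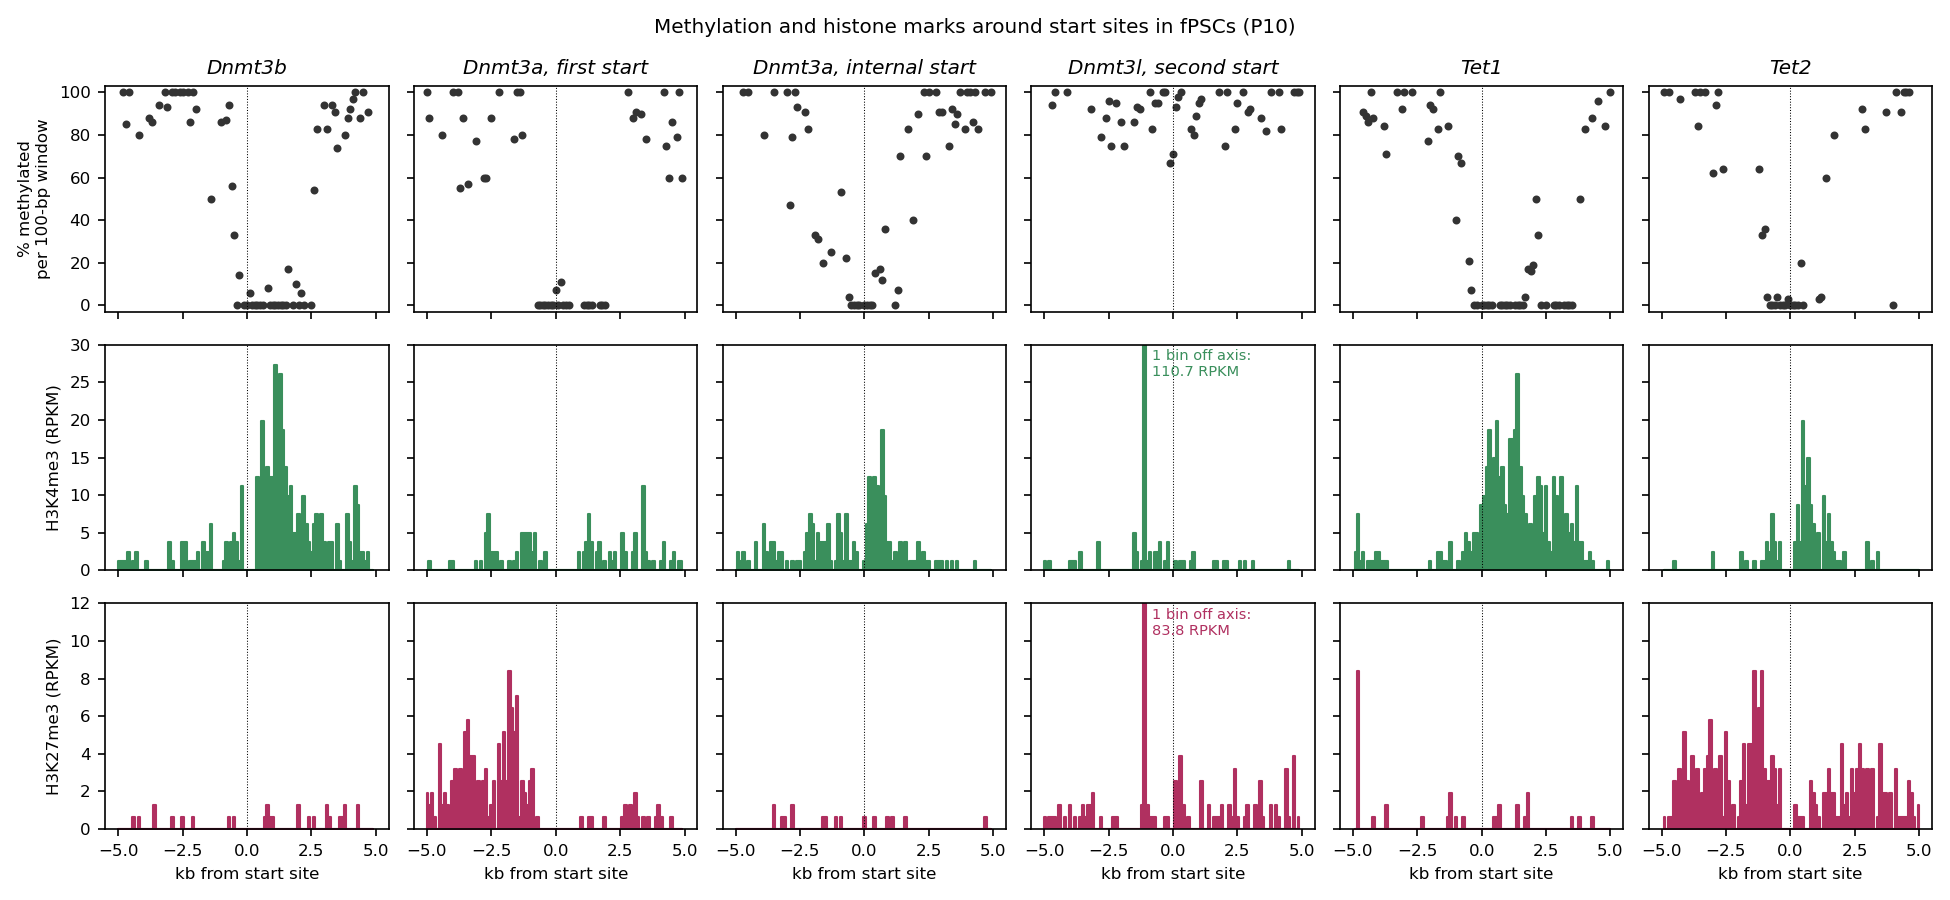
Methylated percentage per 100-bp window (top), H3K4me3 (middle) and H3K27me3 (bottom) in RPKM, by distance in kb from 6 start sites in P10 fPSCs, with 1 file per assay. Dnmt3l alone is methylated across its start (89.9% within 1000 bp), and both Dnmt3a starts lie in unmethylated stretches (1.38% and 10.6%). H3K4me3 is 6.22 RPKM at the internal and 0.685 RPKM at the first Dnmt3a start, where most bins are listed for neither mark and count as 0. Tet2 has both marks on the flanks. The 1 bin beyond the axes near Dnmt3l is labelled with its values.

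Genes that work with these enzymes were followed in 5 lists. Shares of all genes past the threshold in fPSCs, for reading these counts, were 17.3% higher and 23% lower against mESCs, and 13.3% and 19% against EpiSCs. Among 17 tested maintenance and de novo cofactors, 1 rose and 3 fell in fPSCs against mESCs, fewer than the 40.3% of all genes that passed. Ehmt1, a histone H3K9 methyltransferase, rose by 1.06. Zfp57, which protects imprints, fell by 2.84 on the log2 scale, from 82.3 ± 17.2 (SD, n = 2) to 11.01 ± 4.03 FPKM (SD, n = 7), and Mga fell by 1.15. Against EpiSCs, where 32.3% of all genes passed, 2 of the 17 rose and 0 fell: Hells, a chromatin remodeller required for DNA methylation, by 1.56 and Setd2, the H3K36 methyltransferase, by 1.01.

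Of 7 genes in the next list, which holds Zfp42, Dppa3, Cxxc4 and Cxxc5, 3 rose and 3 fell against mESCs, where 40.3% of all genes passed. Its genes do not act on methylation in a common direction, so the counts are not read as a change in repressors of methylation. Zfp42 went from 365 ± 25.8 (SD, n = 2) to 0.0172 ± 0.0206 FPKM (SD, n = 7). Dppa3, which keeps Uhrf1 off chromatin, went from 125 ± 97.2 to 0.0110 ± 0.0150 FPKM. Cxxc5 rose by 0.89, and Cxxc4, listed at 0 in both mESC libraries, was at 0.889 ± 0.282 FPKM (SD, n = 7) in fPSCs. Against EpiSCs 0 of the 7 passed in limma, and 2 had an unadjusted p under 0.05.

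Among 10 methyl-CpG readers, 1 rose and 2 fell against mESCs (Zbtb33 1.25, Zbtb38 -1.54, Mbd2 -0.67), and 1 rose and 2 fell against EpiSCs (Zbtb33 0.99, Mbd2 -0.93, Zbtb4 -0.89), below the shares of 40.3% and 32.3% over all genes. Of 20 tested genes for removal of oxidised or deaminated bases and partners of TET enzymes, 0 rose and 10 fell against mESCs, where 17.3% of all genes were higher and 23% lower, with a median of -0.74 beside -0.04 over all genes. The largest falls named here were Apobec3, a cytidine deaminase, at -4.35 and Gadd45b, at -2.999. Against EpiSCs 2 of the 20 rose and 6 fell. Apex1 rose by 1.13 and Ung, which removes uracil from DNA, by 0.64, and Gadd45g and Apobec3 fell by 3.70 and 2.77 on the log2 scale.

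Of 7 methyl donor enzymes, 3 rose and 0 fell against mESCs, and 2 rose and 0 fell against EpiSCs, where 40.3% and 32.3% of all genes passed. Mat2a, which makes S-adenosylmethionine, exceeded its level in mESCs by 0.90 and its level in EpiSCs by 0.98 (limma adjusted p = 0.0190 and 0.0160). Mat2b rose against EpiSCs by 0.89. Feeder RNA can enter each value set against EpiSCs, and its part was not tested.

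The genes whose levels ran most like each enzyme were sought over all 19 libraries by Pearson's r of log2(FPKM + 1). The libraries share lines, media and deposits, so r is a description. For Dnmt3b these were Esrp1 (0.97), an epithelial splicing regulator, and Zic5 (0.97), and for Dnmt3a Gemin5 (0.94) and Pdzd4 (0.94). For Dnmt3l they were Prr23a2 (0.99) and Piwil2 (0.98), a piRNA pathway protein of the germ line, and for Tet2 Vwf (0.99) and A2m (0.99). Uhrf1 ran with Cln6 (0.93) and Tgif1 (0.91), Tet3 with Tmx4 (0.92) and Wdfy2 (0.91), Tet1 with Nup155 (0.89) and Dtwd2 (0.88), and Dnmt1 with Atg2a (0.79) and Kmt2b (0.78). Among the 8 genes themselves, Dnmt3a and Dnmt3b had r = 0.90 and Dnmt3b and Tet2 r = -0.93 over the 19 libraries. Tet2 reached 1 FPKM in the 2 mESC libraries alone, so each r with Tet2 rests mainly on these libraries against the rest. Prr23a2 and Piwil2 were low, at means of 1.53 and 2.03 FPKM in EpiLCs and less in mESCs, EpiSCs and fPSCs.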

How the data were processed

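Bulk RNA-seq of mESCs, EpiLCs, Epiblastoids, fPSCs and EpiSCs was deposited by the authors as FPKM per gene; the submitters' processing notes name cutadapt 1.11, TopHat2 2.1.1, Cufflinks 2.1.1 and mm9. Read depth is unknown from FPKM, and 10034 to 10933 genes were at 1 FPKM or more per library. Single-cell counts per gene were deposited as 2 tables (Drop-seq_tools), and whether copied reads were collapsed is not given in the sources used here. Methylation was deposited as a fraction per 100-bp window (BS-Seeker2) and histone marks, from STAR ChIP-seq libraries aligned with Bowtie2 2.2.2, as RPKM signal per bin. Each is 1 file: the methods say that ChIP replicates were merged, and whether the methylation replicates were is not given in the sources used here.

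From the deposited FPKM, log2(FPKM + 1) was fitted with limma 3.58.1 (R 4.3.3, empirical Bayes with an intensity trend) over the genes that reached 1 FPKM in 2 libraries of the fit, and p-values were adjusted over all genes tested by Benjamini-Hochberg. Count models were not run because the values are not counts. The fit was checked on simulated data with known differences. Cells with fewer than 500 genes were removed, and thinning, intervals and likeness were computed in Python 3.11.15 with numpy 2.4.6, pandas 2.3.3 and scipy 1.17.1. Start sites are those of RefSeq (GRCm38.p6), placed on NCBIM37 by exact sequence match, and the annotated genes are those of GENCODE on that build. The 8 genes and all lists were chosen with earlier results of these data known. Named beside the 8 genes are, per list, up to 2 genes with the largest rise and 2 with the largest fall in fPSCs against mESCs and EpiSCs among those past the threshold without overlap between groups, and the 2 genes with the highest r to each enzyme; 1 gene that this rule names is not reported here. Markers and the remaining genes named by value were used only to check labels or background. Groups came from the sample labels. Alternatives were upper-quartile scaling, 0.1 as pseudocount, keeping genes with low values, leaving out each library, each deposit alone, other sets of libraries in the fit, a replicate block, other windows around starts, other weights for methylation and other summaries of the cells.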

Additional observations from a re-analysis of the deposited data

Results flagged for a closer look

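Dnmt3l at P10, at 0.0276 FPKM, stood far above the other 6 long-term fPSC libraries in relation to their range, by Dixon's criterion for a single distant sample. The other 6 were at 0 to 0.00912 FPKM, so all 7 values are close to 0. For normally distributed values, chance singles out about 1 in 20 groups in this way. With 4 of the 7 values at 0, that rate does not hold here. The criterion was applied to each of the 8 genes in bulk and to the 7 listed in single cells. Between the deposits of fPSCs, where 29.2% of all genes tested passed, Uhrf1 differed by -1.07 on the log2(FPKM + 1) scale and Dnmt3a by 0.75. Both were past the threshold in limma (adjusted p = 0.000123 and 0.00246). The cause was not tested.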

How the results depend on the processing

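Of 714 fitted differences of the 8 genes under an alternative, 674 kept their direction and side of the threshold, 5 lost the call, 10 gained one and 25 changed sign. None of the 25 passed the threshold with all libraries or under the alternative in limma. Leaving out 1 library at a time gave 3 to 5 genes past the threshold in fPSCs against mESCs (5 of 8 with all), with 3 of 7 without mESCs replicate 2 and 4 of 7 without replicate 1, since Tet2 was then not tested. It gave 2291 to 3019 genes in EpiLCs against mESCs (3706 with all libraries), 1523 to 4463 in fPSCs against EpiSCs (4041), 865 to 1823 in fPSCs against EpiLCs (1728), 2425 to 3621 in EpiSCs against EpiLCs (4488), and 32 to 136 in epiblast-derived against first-deposit fPSCs (99, or 50 without a filter on low values). An arm left with 1 library was assumed to vary like the other groups. With the first or second deposit alone, 3178 or 2648 genes passed against EpiLCs. With the second alone 5 of the 8 genes passed against EpiSCs (2 with all), where 5805 of all 12482 genes tested passed (4041 of 12513 with all libraries). Tet3 in EpiLCs against mESCs passed with a pseudocount of 0.1 (1.70, adjusted p = 0.0378). Mean methylation was 87.0% on autosomes and 83.0% when weighted by CpGs (87.1% over all windows), and 39.5% within 500 bp of starts (48.6% within 1000 bp). Unknown depth and coverage limit what can be said of Dnmt3l and of single starts.

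The changes of sign were in Dnmt1, Uhrf1, Dnmt3b and the TET genes. With the first deposit alone, Uhrf1 differed by 0.24 and Tet1 by 0.12 in fPSCs against mESCs, and Uhrf1 by 0.22 against EpiSCs. With the second alone, Uhrf1 differed by -0.42 against EpiLCs. Upper-quartile scaling gave -0.014 for Dnmt3b between deposits. The other changes came from leaving out 1 library. In that case Tet1 ran from -0.21 to 0.89 in EpiLCs against mESCs, and in EpiSCs against mESCs Dnmt1 ran from -0.35 to 0.033 and Uhrf1 from -0.13 to 0.17. Tet1 ran from -0.43 to 0.040 in fPSCs against mESCs. In fPSCs against EpiLCs, Dnmt1 ran from -0.032 to 0.22, Uhrf1 from -0.24 to 0.30, Tet1 from -1.08 to 0.016 and Tet2 from -0.0091 to 0.12. Between deposits, Dnmt1 ran from -0.071 to 0.036 and Dnmt3b from -0.047 to 0.19. In epiblast-derived against first-deposit fPSCs, Dnmt1 ran from -0.068 to 0.12, Tet1 from -0.55 to 0.14 and Tet3 from -0.59 without the E6.5 line to 1.14 without the E5.5 line.

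Deviations of same-numbered libraries from their group means had r = 0.21, -0.20 and -0.14 for mESCs with EpiLCs, mESCs with EpiSCs and EpiLCs with EpiSCs. With 2 libraries per group, this cannot settle whether the numbers pair them. With the replicate block, 4107, 6685 and 5196 genes passed in EpiLCs against mESCs, EpiSCs against mESCs and EpiSCs against EpiLCs, and 5, 6 and 5 of the 8 genes. Without the block the same 6 libraries gave 4311, 6746 and 5357 genes. With the EpiSC numbers crossed, chosen after seeing the data, 7059 and 5832 genes passed in the last 2. For comparisons with fPSCs, no paired analysis was possible because fPSCs share no replicate numbers with the other groups.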
